A study of Mus musculus with 6 samples.

Results

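Tip cell genes are here 7 genes linked to the endothelial cells that lead a growing vessel sprout, though not all are particular to them: Esm1, Apln, Pdgfb, Aplnr, Cxcr4, Unc5b and Cd34. They and the gene lists below were chosen by name, with earlier results of these data known. Each of the 7 matched 1 of the 23473 RefSeq rows of an RNA-seq table of tumor endothelial cells (TECs). The TECs were taken from tumors of Lewis lung carcinoma (LLC), a mouse lung cancer line injected under the skin, in C57BL/6 mice that the labels give as 8 weeks old, with 3 libraries in each of 2 groups. Control (Ctrl) mice are labelled wild type. NICeCA mice carried Cdh5-Cre ERT2 together with the intracellular domain of Notch1 in the Rosa26 locus behind a floxed stop, so that tamoxifen releases active Notch1 in cells that express the endothelial cadherin Cdh5. The methods describe tamoxifen for induction of Cre but do not say whether the Ctrl mice of these libraries received it or carried Cre. Cells were captured on beads against CD31, a surface protein that leukocytes and platelets also carry, and each library is a bulk RNA sample in which fewer cells of a type and less RNA per cell cannot be told apart. The labels say that tumors were collected on different days, while the methods give a single day.

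In a sprout, tip cells respond to VEGF, extend filopodia and express the Notch ligand Dll4, which activates Notch in the neighboring stalk cells and restrains the tip cell program there. Esm1 encodes a secreted proteoglycan, Apln the peptide apelin and Pdgfb a growth factor that recruits pericytes. Aplnr is the apelin receptor, Cxcr4 the receptor of the chemokine CXCL12, Unc5b a receptor of netrins, and Cd34 a sialomucin of the cell surface. The paper counts CD34 among general endothelial markers. The comparison asked how the levels of these genes, which Notch is expected to restrain, stand when Notch is held active in the endothelium of a tumor.

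Promoter sequences were available for 5 of the 7 genes in the RefSeq set of the GRCm38.p6 build, and Aplnr and Pdgfb had no entry. The 250 bases upstream of the start are shown for Esm1, the tip cell gene that differed between the groups, for Apln, a ligand that did not pass the test, and for Cxcr4, the most abundant of the 7. They lie at chr13:113209409-113209658 on the plus strand, chrX:48034854-48035103 on the minus strand and chr1:128592300-128592549 on the minus strand. Each is written 5′ to 3′ on the strand of its gene, and capitals mark GGAA on either strand, the core of sites bound by ETS factors, and TATAAA, the core promoter element that TBP binds.
Esm1: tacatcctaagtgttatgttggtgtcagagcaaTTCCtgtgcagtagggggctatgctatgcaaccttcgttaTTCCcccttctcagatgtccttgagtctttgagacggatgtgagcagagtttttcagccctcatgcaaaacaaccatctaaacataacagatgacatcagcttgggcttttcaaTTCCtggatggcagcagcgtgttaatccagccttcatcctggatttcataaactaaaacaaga
Apln: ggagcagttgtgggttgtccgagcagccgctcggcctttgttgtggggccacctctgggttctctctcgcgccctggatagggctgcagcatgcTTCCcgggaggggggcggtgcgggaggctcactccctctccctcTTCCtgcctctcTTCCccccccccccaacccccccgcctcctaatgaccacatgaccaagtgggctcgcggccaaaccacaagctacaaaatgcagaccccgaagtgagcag
Cxcr4: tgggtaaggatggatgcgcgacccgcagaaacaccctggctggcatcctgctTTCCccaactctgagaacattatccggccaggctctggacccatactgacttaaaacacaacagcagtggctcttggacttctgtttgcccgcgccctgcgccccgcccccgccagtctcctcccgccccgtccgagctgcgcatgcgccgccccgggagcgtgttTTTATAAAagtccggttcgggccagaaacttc
All 3 GGAA matches of Esm1 and all 3 of Apln read TTCC on the gene's own strand, as did the 1 match of Cxcr4. Unc5b held 2 matches and Cd34 held 5, while 93.4% of the 32851 promoter windows of the set held at least 1 and their median was 3. Of the 5 windows only that of Cxcr4 held TATAAA, 25 to 30 bases before the start and, overlapping it on the other strand, 27 to 32 bases before it, and 12.4% of all windows had a match. Neither TGGGAA, the core bound by the Notch partner RBPJ, nor ACGTG, a core of hypoxia response elements, was found in the 5 windows. Among all windows 21.6% held TGGGAA and 16.6% held ACGTG. GGAA can overlap TGGGAA, and a match or its absence in these letters is a description only.

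Levels are given as RPKM, read numbers corrected for the length of the gene and the depth of the library, so that genes can be compared per length. Reads recovered from the RPKM values placed 29818454 to 30769916 reads on RefSeq rows in Ctrl libraries and 27793301 to 29194187 in NICeCA libraries. All 15 endothelial markers exceeded 1 RPKM on average, and their summed level was 324 to 791 RPKM in Ctrl libraries, with Ctrl replicate 1 at 791, and 718 to 909 RPKM in NICeCA libraries. Markers of other cells were present as well. All 10 macrophage markers exceeded 1 RPKM, and their sum was 7012 to 10003 RPKM in Ctrl and 5405 to 9273 RPKM in NICeCA libraries. Lyz2 and the C1q genes carried most of that sum, while Cd14, Fcgr1 and Cd68 were called higher in NICeCA libraries. For neutrophils, 8 of 11 markers exceeded 1 RPKM, with sums of 119 to 276 RPKM in Ctrl and 608 to 1706 RPKM in NICeCA libraries. The lists below give the same count and the sums in the same order. Pericyte markers (8 of 10) summed to 32.8 to 52.5 and 76.7 to 144 RPKM, and fibroblast markers (7 of 8) to 336 to 562 and 167 to 336 RPKM. The lymphocyte list (9 of 10) gave 40.0 to 63.1 and 34.2 to 53.6 RPKM. Of the platelet list only 3 of 6 exceeded 1 RPKM, and its sums of 107 to 178 and 896 to 1131 RPKM were nearly all Pf4. Epithelial markers (2 of 6) summed to 6.71 to 12.7 and 6.24 to 8.57 RPKM, with Krt8, Krt19, Epcam and Cldn4 below 1 RPKM. Of the other 2, Krt18 was called lower in NICeCA libraries (log2 fold change -0.98, limma adjusted p = 0.0381). Cdh1 was not called (0.51, adjusted p = 0.426). The part of these cells in the results below was not tested. The 7 tip cell genes were set against the endothelial markers, and the marker mean served as a covariate in a fit. Neither shows what other cells contribute to the level of a gene.

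Of the 7 tip cell genes, Esm1 was higher in NICeCA TECs and the other 6 did not pass the test. The test was limma on log2(RPKM + 1) over the 12320 RefSeq rows with a mean of at least 1 RPKM, which all 7 exceeded, at an adjusted p under 0.05 (Benjamini-Hochberg), and a gene past it is called. Over all tested genes 13.6% were called, 5.88% higher and 7.68% lower in NICeCA TECs, so 1 of 7 is close to the background. The log2 fold change was positive for 4 of the 7 and negative for 3, with a median of 0.55, against a median of -0.05 and 44.7% positive over all tested genes. The 15 endothelial markers had a median of 0.75, and all 15 were positive. None of the 7 was called lower, and 1 of the 7 had an unadjusted p under 0.05. Scaling the libraries by a trimmed mean of log ratios moved the share of higher genes among all calls from 43.4% to 59.4%, and Esm1 stayed the 1 tip cell gene called.

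**Figure D1:**
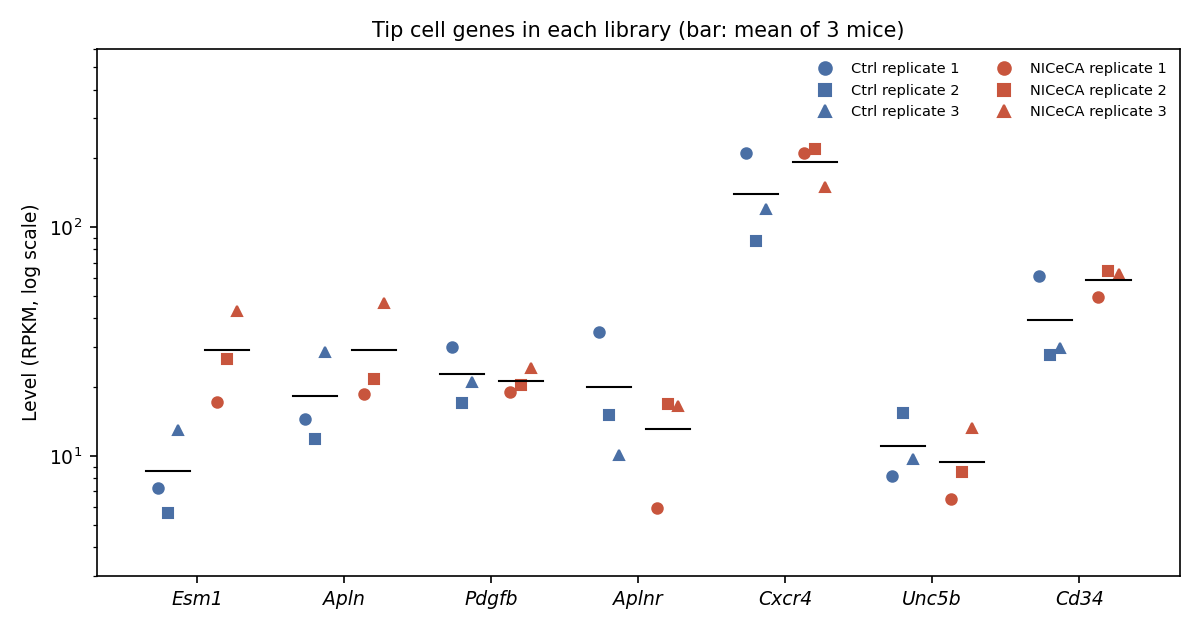
Level of the 7 tip cell genes in each of the 6 libraries, in RPKM on a log scale. Points are libraries, marked by group and replicate, and bars are the means of 3 mice. The groups are separate for Esm1, where Ctrl libraries reach 13.0 RPKM and NICeCA libraries start at 17.2 RPKM, and they overlap for the other 6 genes.

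Among the secreted products, Esm1 (chr13:113209659-113218104, plus strand, GRCm38) had 7.27, 5.65 and 13.0 RPKM in Ctrl replicates 1 to 3 and 17.2, 26.7 and 43.1 RPKM in NICeCA replicates 1 to 3. Every NICeCA library lay above every Ctrl library, and replicate 3 was the highest in each group. The mean rose from 8.63 ± 3.85 to 29.0 ± 13.1 RPKM (SD, n = 3 each), with a log2 fold change of 1.62 (standard error 0.36, 95% interval 0.78 to 2.45, limma adjusted p = 0.0348). These levels rested on 473 to 1065 reads in Ctrl and 1321 to 3373 reads in NICeCA libraries, and Esm1 ranked 102 of the 12320 tested genes from the most positive log2 fold change down. The groups were separated upward for 1 of the 7 genes and downward for 0, while over all tested genes 40.9% were separated, 16.5% upward and 24.4% downward. The call of Esm1 was lost without Ctrl replicate 1 (adjusted p = 0.0622), Ctrl replicate 2 (0.0795), NICeCA replicate 1 (0.0716) or NICeCA replicate 2 (0.130), while the log2 fold change stayed between 1.29 and 1.93 over all single omissions.

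Apln (chrX:48025146-48034852, minus strand) had 14.6, 11.9 and 28.6 RPKM in Ctrl mice and 18.6, 21.7 and 46.5 RPKM in NICeCA mice. Again replicate 3 stood highest in both groups, but Ctrl replicate 3 exceeded NICeCA replicates 1 and 2, so the groups overlapped. The log2 fold change of 0.61 (standard error 0.40, 95% interval -0.30 to 1.52, limma adjusted p = 0.299) was within the spread between mice. Pdgfb (chr15:79995876-80014808, minus strand) was the steadiest of the 7, at 30.1, 17.1 and 21.0 RPKM in Ctrl and 19.0, 20.5 and 24.3 RPKM in NICeCA libraries. The NICeCA values fell wholly inside the Ctrl range. Its log2 fold change was -0.06 (standard error 0.20, 95% interval -0.54 to 0.41, limma adjusted p = 0.853), and the sign turned without Ctrl replicate 1 (0.15) or NICeCA replicate 1 (0.01).

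Among the receptors, Aplnr (chr2:85136360-85139923, plus strand) had 34.8, 15.1 and 10.2 RPKM in Ctrl and 5.94, 17.0 and 16.5 RPKM in NICeCA libraries. The highest level of the 6 was in Ctrl replicate 1 and the lowest in NICeCA replicate 1, with the other libraries mixed between them. Aplnr had the widest interval of the 7 genes, with a log2 fold change of -0.52 (standard error 0.49, 95% interval -1.65 to 0.61, limma adjusted p = 0.473). The ratio of the Apln level to that of Aplnr, chosen after the values were seen, was 0.419, 0.789 and 2.81 in Ctrl and 3.13, 1.28 and 2.82 in NICeCA libraries. Ligand and receptor thus did not hold a fixed proportion within either group.

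Cxcr4 (chr1:128588199-128592299, minus strand) was the most abundant tip cell gene in all 6 libraries, at 212, 87.0 and 119.7 RPKM in Ctrl and 212, 219 and 149 RPKM in NICeCA libraries. Ctrl replicate 1 was level with the NICeCA libraries, and the other Ctrl libraries lay below all of them. The log2 fold change was 0.55 (standard error 0.31, 95% interval -0.18 to 1.27, limma adjusted p = 0.247), and without Ctrl replicate 1 it was 0.90 (adjusted p = 0.0543). Cxcr4 is also a receptor of many leukocytes, whose markers were abundant here. Unc5b (chr10:60762595-60831581, minus strand) had 8.16, 15.5 and 9.68 RPKM in Ctrl and 6.46, 8.51 and 13.2 RPKM in NICeCA libraries. The ranges overlapped over most of their width. Its log2 fold change was -0.23 (standard error 0.28, 95% interval -0.88 to 0.43, limma adjusted p = 0.594), and without Ctrl replicate 2 it was 0.02.

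At the cell surface, Cd34 (chr1:194938821-194961292, plus strand) had 61.2, 27.6 and 29.5 RPKM in Ctrl and 49.5, 64.6 and 62.7 RPKM in NICeCA libraries. As for Cxcr4, Ctrl replicate 1 reached the NICeCA levels and the other Ctrl libraries did not. The log2 fold change was 0.65 (standard error 0.29, 95% interval -0.02 to 1.32, limma adjusted p = 0.149). Without Ctrl replicate 1 it was 1.01 and passed the test (adjusted p = 0.0288). Gm16897, on the opposite strand, overlaps Cd34 and had 3.42 to 7.35 RPKM over the 6 libraries, and without strand information their reads cannot be told apart.

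Within each library Cxcr4 ranked first and Cd34 second among the 7. Below them the order moved: Esm1 was the lowest of the 7 in Ctrl replicates 1 and 2 and ranked 5 in Ctrl replicate 3, whereas in NICeCA replicates 1 to 3 it ranked 5, 3 and 4. Aplnr ranked 3, 5 and 6 in Ctrl and 7, 6 and 6 in NICeCA libraries. Mean levels of Apln, Pdgfb and Aplnr lay between 18.4 and 22.7 RPKM in Ctrl TECs, closer together than the SDs of 6.63 to 13.0 RPKM among mice. In NICeCA TECs the means of Esm1 and Apln were both 29.0 RPKM.

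The level of each tip cell gene was then set against the 15 endothelial markers of its library. The value is log2(RPKM + 1) of the gene minus the mean log2(RPKM + 1) of the markers. That marker mean was 5.38, 4.12 and 4.44 in Ctrl and 5.12, 5.57 and 5.43 in NICeCA libraries, so 2 Ctrl libraries were lower than the rest. None of the 7 tip cell genes is on the marker list. Cd93, which is on it, was itself called higher in NICeCA libraries (log2 fold change 0.87, limma adjusted p = 0.0403). Whether active Notch alters the markers was not tested. With 3 libraries against 3 the exact permutation test has 20 assignments and cannot give a two-sided p below 0.1.

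**Figure D2:**
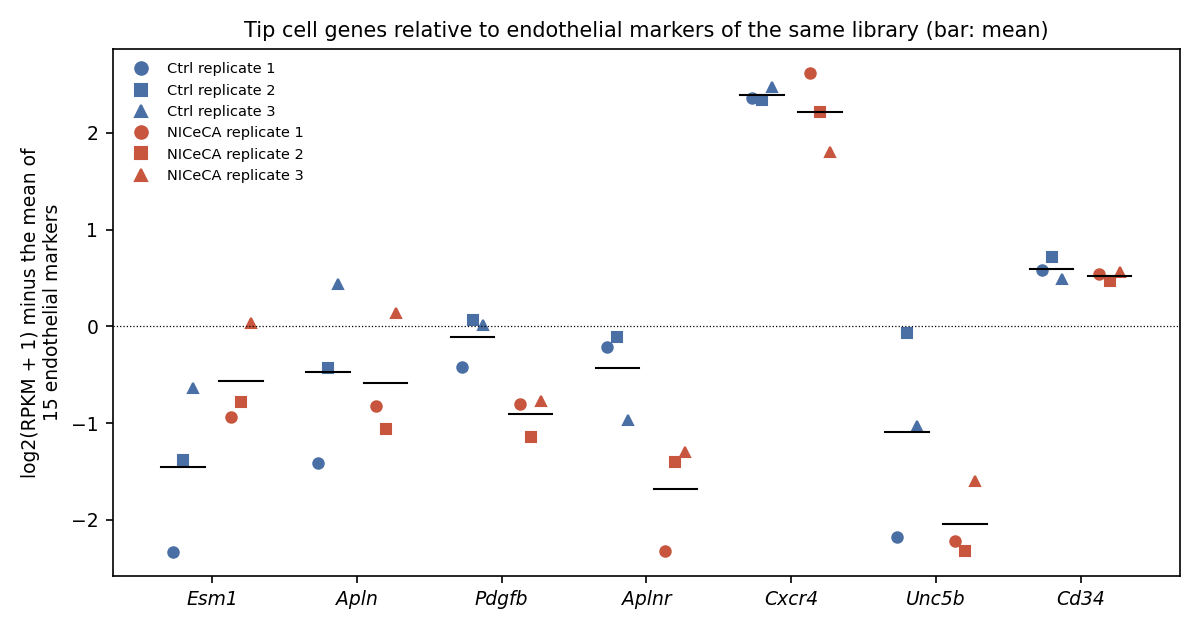
Level of the 7 tip cell genes relative to the endothelial markers of the same library, as a difference of log2(RPKM + 1), by group and replicate with bars at the means. NICeCA libraries lie wholly below Ctrl libraries for Pdgfb and Aplnr, the Esm1 groups overlap, and the Cd34 values of all 6 libraries lie between 0.47 and 0.72.

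On this relative scale Esm1 stood at -2.33, -1.38 and -0.64 in Ctrl and -0.93, -0.78 and 0.03 in NICeCA libraries. The groups now overlapped, through Ctrl replicate 3, with a difference of 0.89 (exact permutation p = 0.3). Aplnr stood at -0.21, -0.11 and -0.96 in Ctrl and -2.32, -1.40 and -1.30 in NICeCA libraries. Every NICeCA library was below every Ctrl library, a difference of -1.25 (exact permutation p = 0.1, the smallest possible). Pdgfb was separated the same way, at -0.42, 0.06 and 0.01 in Ctrl and -0.80, -1.14 and -0.77 in NICeCA libraries. Its difference was -0.79 (exact permutation p = 0.1). Of all tested genes 24.8% were separated downward on this scale and 0.779% upward, so 2 of 7 is near the background.

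Cd34 followed the endothelial markers closely, with 0.60 ± 0.12 in Ctrl and 0.52 ± 0.05 in NICeCA libraries (SD, n = 3 each) and a difference of -0.07 (exact permutation p = 0.4). Cxcr4 was at 2.39 ± 0.07 in Ctrl and 2.21 ± 0.41 in NICeCA libraries, a difference of -0.18 (exact permutation p = 0.6). The differences of Apln (-0.12, exact permutation p = 0.9) and Unc5b (-0.95, exact permutation p = 0.2) were within the spread between mice. With the marker mean as a covariate in limma, the log2 fold change of Esm1 was 1.46 (adjusted p = 0.252) and that of Aplnr was -1.50, and neither was called. That fit called 0 of the 12320 genes, with 2170 at an unadjusted p under 0.05.

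A wider list of 27 genes of tip cells and of the matrix they lay down, all tested, held 7 genes higher in NICeCA TECs, 1 lower and 19 not called. The median log2 fold change was 0.50, with 20 positive and 7 negative, beside 0.75 for the 15 endothelial markers, all of them positive. Over all tested genes 5.88% were higher and 7.68% lower. The highest by log2 fold change were Pgf, a ligand of VEGF receptor 1, and Igfbp3, a binding protein of insulin-like growth factors. Pgf had 5.50, 3.61 and 9.63 RPKM in Ctrl and 24.9, 19.0 and 25.3 RPKM in NICeCA libraries (log2 fold change 1.81 with a standard error of 0.28, limma adjusted p = 0.0177). Igfbp3 had 129.8, 52.6 and 96.3 RPKM against 265, 281 and 379.5 RPKM (1.80, standard error 0.31, adjusted p = 0.0213). Both were, like Esm1, fully separated between the groups.

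Angpt2, a ligand of the Tie2 receptor, rose from 17.9, 9.53 and 19.7 RPKM to 33.2, 33.5 and 41.8 RPKM (log2 fold change 1.20, limma adjusted p = 0.0317). Adm, the vasodilator adrenomedullin, rose by 0.88 on the log2 scale (adjusted p = 0.0466), and Ramp3, which makes its receptor selective, had a value of 1.24 that missed the threshold (adjusted p = 0.0535). Rgcc, a regulator of the cell cycle (1.33, adjusted p = 0.0253), Plaur, the urokinase receptor (1.00, adjusted p = 0.0281), and Kcne3, a potassium channel subunit (1.13, adjusted p = 0.0435), were the other genes called higher. Plaur is also expressed by myeloid cells. Hspg2, the basement membrane proteoglycan perlecan, was the gene called lower, from 53.0, 56.4 and 41.9 RPKM to 26.1, 31.0 and 35.7 RPKM (-0.69, adjusted p = 0.0397).

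The Notch ligand Dll4 and the VEGF receptors that define the tip cell response did not pass the test. Dll4 had 13.9, 5.73 and 8.20 RPKM in Ctrl and 11.1, 15.6 and 17.9 RPKM in NICeCA libraries (log2 fold change 0.68, 95% interval 0.01 to 1.35, limma adjusted p = 0.138). Kdr, VEGF receptor 2, had a log2 fold change of 0.67 (adjusted p = 0.142) and Flt4, VEGF receptor 3, one of 0.54 (adjusted p = 0.127). Those of the coreceptors Nrp1 and Nrp2 were 0.17 and -0.30. The count of calls in the wider list fell from 8 to 5 without Ctrl replicate 2 and to 0 without NICeCA replicate 1 or NICeCA replicate 2, where 14 and 10 genes had an unadjusted p under 0.05. Calls over all genes dropped as well under these omissions, from 1671 to 379, 104 and 18, with 3023 and 2740 genes at an unadjusted p under 0.05 in the fits without NICeCA replicates 1 and 2.

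**Figure D3:**
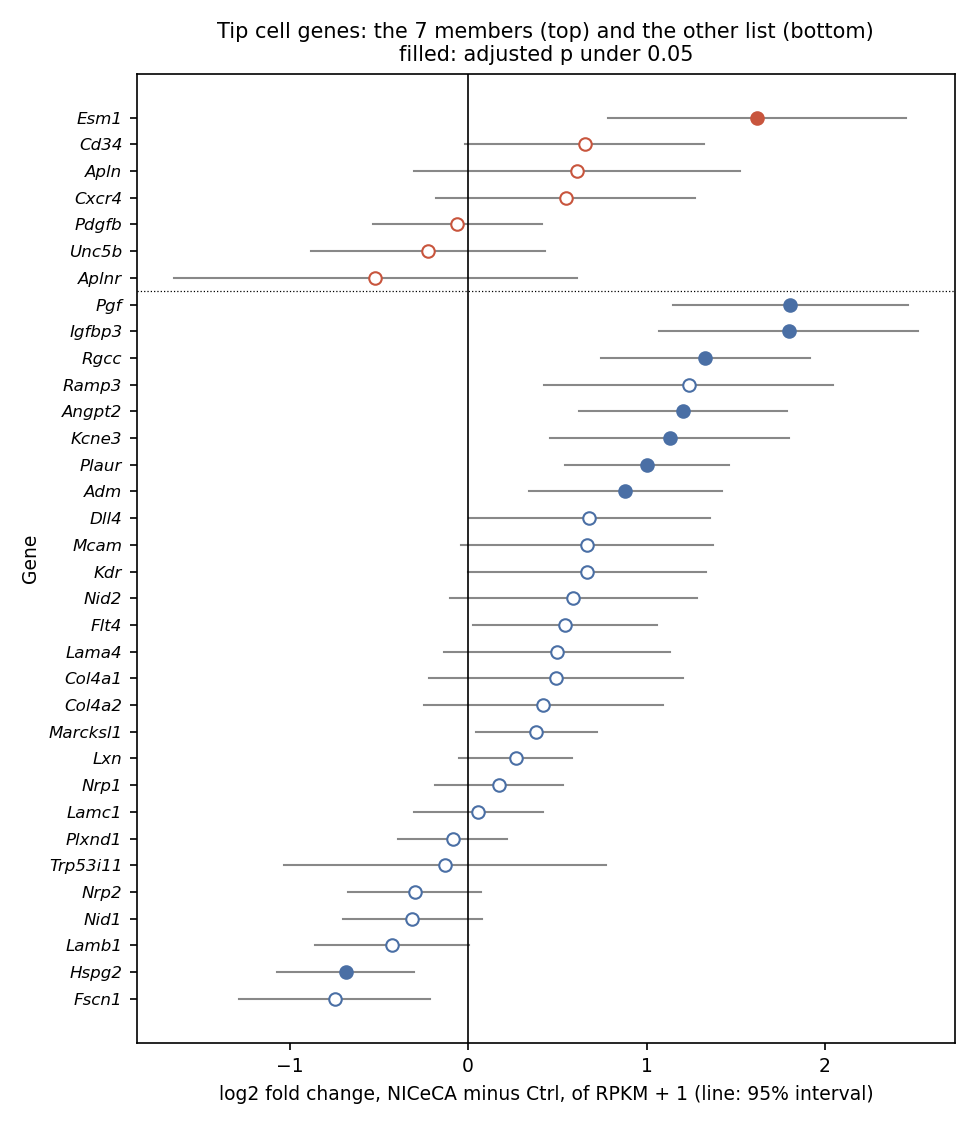
Log2 fold change of RPKM + 1 (NICeCA minus Ctrl) with its 95% interval for the 7 tip cell genes above the dotted line and the 27 genes of the wider list below it. Filled points passed an adjusted p under 0.05, which are Esm1 above the line and, below it, 7 genes to the right of 0 and Hspg2 to the left.

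The ligands, receptors and relatives of the tip cell genes formed a list of 20, of which 17 were tested. It held 3 genes higher, 4 lower and 10 not called, where 5.88% of all tested genes were higher and 7.68% lower, with a median log2 fold change of 0.34. Apela, the other ligand of the apelin receptor, was at 0 in 4 libraries and at most 0.0291 RPKM in the others. Without Ctrl replicate 2 the list held 1 call, without Ctrl replicate 3 it held 4, and without NICeCA replicate 1 or NICeCA replicate 2 it held 0, with 13 and 11 genes at an unadjusted p under 0.05. Over all genes these omissions left 379, 1655, 104 and 18 calls. The fits without NICeCA replicates 1 and 2 had 3023 and 2740 genes at an unadjusted p under 0.05.

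In the CXCR4 axis, Mif, a cytokine that also binds CXCR4, rose from 133, 189 and 227 RPKM to 391, 298 and 402 RPKM (log2 fold change 1.01, limma adjusted p = 0.0333). Cxcl12, the chemokine ligand, had 3.48, 3.84 and 4.53 RPKM in Ctrl and 5.23, 6.33 and 9.46 RPKM in NICeCA libraries. The groups did not overlap, but the adjusted p of 0.0599 missed the threshold. Ackr3, the scavenger receptor of CXCL12, was separated too (0.77, adjusted p = 0.0533).

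In the PDGF family, Pdgfra, a receptor of fibroblasts, fell from 5.86, 9.91 and 7.13 RPKM to 3.34, 2.68 and 4.99 RPKM (log2 fold change -0.89, limma adjusted p = 0.0433). Its ligand Pdgfc fell from 6.21, 8.85 and 7.41 RPKM to 3.91, 3.48 and 5.15 RPKM (adjusted p = 0.0381). The summed fibroblast markers were at 336 to 562 RPKM in Ctrl and 167 to 336 RPKM in NICeCA libraries, mostly Col3a1, and their part in these differences was not tested. Single markers went both ways, since Col3a1 (-1.13) and Lum (-1.01) were called lower and Postn (1.14) higher. Pdgfrb, the PDGF-B receptor of pericytes, had a log2 fold change of -0.03 (95% interval -0.64 to 0.58, adjusted p = 0.950), close to that of Pdgfb itself. The 8 tested pericyte markers were all positive, with a median of 0.93, and 3 of them were called higher. The values of Pdgfa (-0.41, adjusted p = 0.226) and Pdgfd (0.80, adjusted p = 0.0799) were not called.

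**Figure D4:**
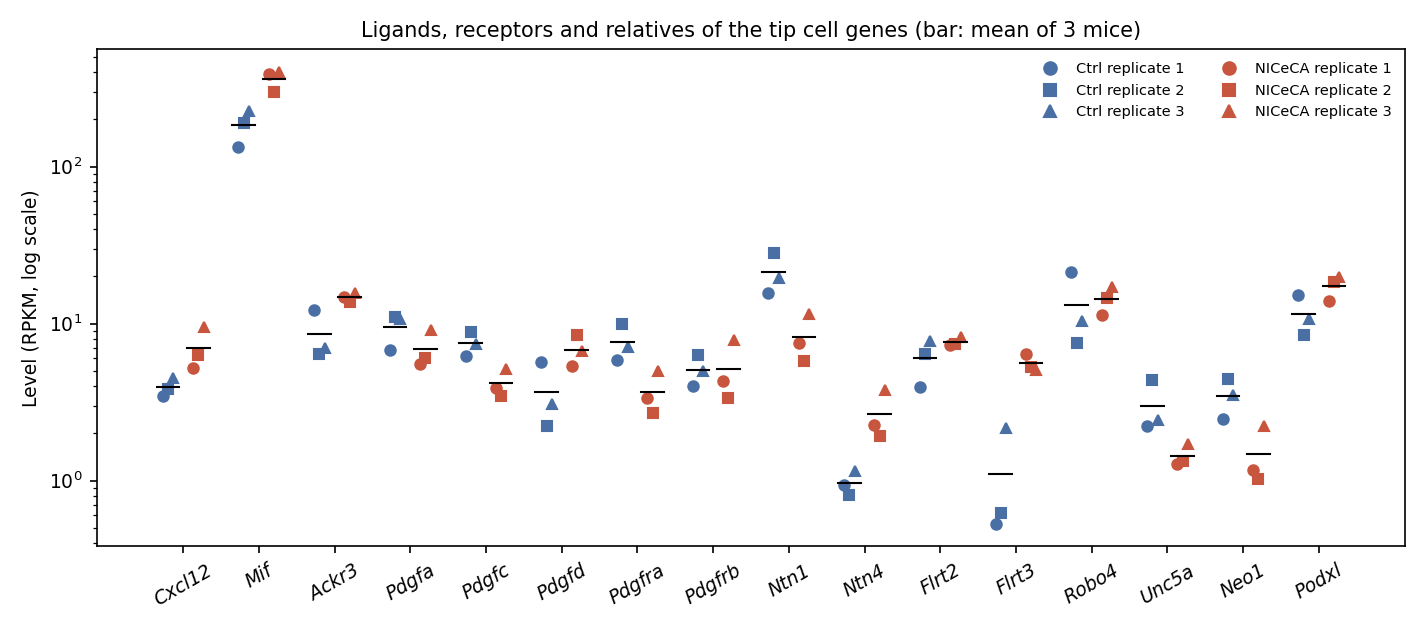
Level of 16 of the 17 tested ligands, receptors and relatives of the tip cell genes in each library, in RPKM on a log scale, by group and replicate with bars at the means. NICeCA libraries lie wholly above Ctrl libraries for Mif, Ntn4 and Flrt3 and wholly below for Ntn1, Pdgfra, Pdgfc and Neo1, the 7 genes called. Cxcl12 and Ackr3 are separated upward and Unc5a downward without a call.

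Among genes that act with Unc5b, ligands went both ways. Ntn1, the netrin that binds UNC5 receptors, had 15.7, 28.3 and 19.6 RPKM in Ctrl and 7.48, 5.75 and 11.5 RPKM in NICeCA libraries (log2 fold change -1.27 with a standard error of 0.27, limma adjusted p = 0.0323). Flrt3, a membrane protein that also binds UNC5 receptors, had 0.531, 0.625 and 2.15 RPKM against 6.40, 5.29 and 5.05 RPKM (1.72, standard error 0.27, adjusted p = 0.0177). Ntn4, a laminin-binding netrin, rose by 0.86 on the log2 scale (adjusted p = 0.0373), from levels near 1 RPKM. Neo1, the receptor neogenin, fell by 0.86 (adjusted p = 0.0468). As for Pdgfra and Pdgfc, the part of fibroblasts and other cells in these differences was not tested. Robo4, an endothelial partner of UNC5B, had a log2 fold change of 0.23 (adjusted p = 0.640) and Flrt2 one of 0.34 (adjusted p = 0.271). Of the Unc5b relatives, Unc5a had a log2 fold change of -0.68 (adjusted p = 0.0653), and Unc5c and Unc5d stayed below 0.06 RPKM in every library. Podxl, a relative of Cd34, was not called (0.59, adjusted p = 0.102).

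The Notch target and stalk cell list of 16 genes, 13 of them tested, had 5 genes higher in NICeCA TECs, none lower and 8 not called, where 5.88% of all tested genes were higher. Its median log2 fold change was 0.78, with 12 positive and 1 negative, beside 0.75 for the 15 endothelial markers, all of them positive. Jag1, a Notch ligand of stalk cells, rose from 7.54, 4.93 and 8.02 RPKM to 17.4, 17.4 and 18.6 RPKM (1.29, standard error 0.17, limma adjusted p = 0.0111). The arterial connexins Gja5 (1.60, adjusted p = 0.0155) and Gja4 (1.26, adjusted p = 0.0210), the Notch target Hey1 (1.10, adjusted p = 0.0412) and Flt1, VEGF receptor 1 (1.03, adjusted p = 0.0442), were also higher. The row of Notch1, whose intracellular domain the transgene encodes, had a log2 fold change of 0.11 (adjusted p = 0.713), and Hes1, another target, was the 1 gene with a negative value (-0.16, adjusted p = 0.562). The target Nrarp was separated upward but missed the threshold (1.05, adjusted p = 0.0519). With the endothelial covariate the log2 fold change was 1.24 for Gja5, 1.085 for Jag1 and 0.94 for Gja4. It was 0.51 for Hey1 and 0.43 for Flt1, and none of the 5 was called. Omission of a library changed the count of 5 to 8 (Ctrl replicate 1), 3 (Ctrl replicate 2, Ctrl replicate 3 or NICeCA replicate 3), 2 (NICeCA replicate 1) or 0 (NICeCA replicate 2, with 6 at an unadjusted p under 0.05). In the same order, calls over all genes were 1035, 379, 1655, 1337, 104 and 18. In the last of these fits 2740 genes had an unadjusted p under 0.05.

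For 6 of the 7 tip cell genes, those whose log2(RPKM + 1) spanned more than 1 over the 6 libraries, the 3 tested genes with the nearest profile were taken, by the root mean square difference of centred log2 values. This is a description over 6 libraries that share the groups and the cell content. Nearest to Cd34 were Olfml2a (0.053), Atp9a (0.062) and the endothelial marker Egfl7 (0.062). Nearest to Cxcr4 were Cd38 (0.032), an ectoenzyme of leukocytes, Sema7a (0.086) and Trf (0.086), the transferrin gene. Esm1 was nearest to Gm10872 (0.093), G0s2 (0.21) and Fpr1 (0.23), the last a receptor of neutrophils and other myeloid cells. Apln was nearest to Csf3r (0.18), the neutrophil growth factor receptor, and to Cd79a (0.18) and Cxcr5 (0.20), genes of B cells. The B cell genes were low, Cd79a at 0.643 to 5.44 RPKM and Cxcr5 at 0.413 to 2.91 RPKM over the 6 libraries. Unc5b was nearest to Mir3962 (0.069), Nnat (0.10) and Gas2 (0.13). For Aplnr the nearest were the small RNA rows Mir125a (0.19), Scarna8 (0.37) and Mir3068 (0.38). Mir125a was low, at 0 in NICeCA replicate 1 and at most 3.01 RPKM, in Ctrl replicate 1.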

How the data were processed

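RNA-seq libraries of CD31-captured TECs from LLC tumors (3 Ctrl, 3 NICeCA) were analysed. The authors deposited 1 RPKM value per library and row, without pooling. The submitters' processing notes name TopHat2 and mm9, but 99.2% of the 23309 RefSeq rows matched by symbol overlap that gene in GRCm38. The sources used here do not give the counting tool or its use of strand. RPKM multiplied by row length gave whole reads (tolerance 0.05) for 100.0% of values checked.

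With R 4.3.3, limma 3.58.1 (mean-variance trend, no replicate block) compared log2(RPKM + 1), two-sided, which understates changes of low genes. FANTOM3 rows (33353) were not tested. Libraries of a group are separate mice. The methods speak of pairs of mice without saying which libraries form them, and replicate numbers were not taken as pairs in the main fit. Named genes were the 7 members, every called gene of the other lists, ligands, receptors or close relatives of a member, and the nearest profiles. Members and lists were chosen with earlier results of these data known. The fit was also tested on simulated data without differences in cell content between libraries, and no result here rests on that test. The values of 1 gene of the partner list are not reported here. Dll4, the VEGF receptors and neuropilins, Ramp3, Notch1, Hes1 and Nrarp were named after their values were seen. Alternatives were other scalings, filters, a pseudocount of 0.1, no trend, voom on recovered reads, the endothelial covariate, the block and omission of each library.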

Additional observations from a re-analysis of the deposited data

How the results depend on the processing

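With the replicate number as a block, the calls were 1 of the 7 tip cell genes (Esm1, adjusted p = 0.0123), 6 in the wider tip cell list, 2 in the partner list and 3 in the Notch and stalk list, with 536 over all genes. Whether the numbers mark pairs is not known. The deviations of libraries from their group means correlated at 0.12, -0.34 and -0.18 for the same number, and at -0.32 to 0.44 for different numbers. With 3 libraries a group such correlations cannot decide it. Without the filter on low values the 4 lists held 0, 1, 1 and 2 calls, and 365 of 22072 genes over all. With the endothelial covariate they held 0 each, with 3, 9, 8 and 6 genes at an unadjusted p under 0.05. Quantile normalization left 1, 3, 4 and 3, with 771 over all genes, and a mean of at least 5 RPKM left 4 in the partner list, where 13 genes were tested. Single omissions gave 0 to 1, 0 to 12, 0 to 8 and 0 to 8 calls. Esm1 was called in 9 of 15 alternatives and positive in 15. Signs turned for Pdgfb (-0.24 to 0.15 over omissions, 0.0116 without NICeCA replicate 1) and Unc5b (-0.48 to 0.0201). With the covariate they turned for Cxcr4 (-0.0754), Unc5b (0.0563) and Cd34 (-0.0239). The causes were not tested, except that a change of filter alters how many genes are adjusted for. With 3 libraries a group, the 95% interval of each of the 6 uncalled tip cell genes still includes log2 fold changes of 0.54 or more in size.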

Other observations

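Per unit of Cd34, the member that stayed nearest to the endothelial markers, the Esm1 level was 0.119, 0.205 and 0.440 in Ctrl and 0.347, 0.413 and 0.687 in NICeCA libraries, a ratio chosen after the values were seen. Ctrl replicate 3 exceeded NICeCA replicates 1 and 2, so the groups overlapped. FANTOM3 transcript models lie inside some of the tip cell genes, and those on the strand of the gene may share its reads. A model on the strand of Apln, at chrX:48025233-48025623, had 7.01, 4.37 and 17.4 RPKM in Ctrl and 9.60, 14.3 and 26.9 RPKM in NICeCA libraries, with replicate 3 highest in both groups as for Apln itself. On the strand opposite to Unc5b, a model inside the gene at chr10:60808660-60812687 had at most 1.24 RPKM, in Ctrl replicate 2, which was also the highest library for Unc5b.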
